A study of Mus musculus with 6 samples.

Results

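The MHC class II genes described here are 9 of the 34099 genes counted in single cells of mouse liver tumors. They are H2-Aa, H2-Ab1, H2-Eb1, Cd74, H2-DMa, H2-DMb1, H2-DMb2, H2-Oa and Ciita, taken by symbol from the gene lists of the count matrices, and all 9 were found. Their UMIs (unique molecular identifiers, tags that let each captured RNA molecule be counted once) were summed per mouse over each annotated cell type and over each cluster of Monocytes, Dendritic cells (DCs) and Endothelial cells (ECs). The tumors were grown from H22, a murine hepatocellular carcinoma cell line, injected into the liver of wild type male C57BL/6J mice that were 8 weeks of age when obtained. The 3 stress mice had gone through chronic unpredictable mild stress (CUMS), a schedule of changing daily stressors, and the 3 control mice received the same tumor cells and no stressors. Each mouse gave 1 10x Genomics library of tumor tissue, and the comparison asks how stress changed the cells around the tumor.

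MHC class II molecules are pairs of an alpha and a beta chain that carry peptides from taken-up proteins to the cell surface and show them to CD4+ T cells. DCs, macrophages and B cells make them constantly, whereas most other cells make them only after interferon gamma. The invariant chain Cd74 guards the groove during transport, the H2-DM pair exchanges its remnant for peptide, the H2-O pair restrains H2-DM, and the transactivator Ciita switches the whole group on. In the liver, sinusoidal ECs and macrophages have also been described as antigen-presenting cells.

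Of the genes counted, 7 members lie within 224 kb of chromosome 17 (GRCm38, chr17:34092340-34316674), in the order H2-Oa, H2-DMa, H2-DMb2, H2-DMb1, H2-Ab1, H2-Aa and H2-Eb1, with H2-Aa alone on the minus strand. Ciita lies on chromosome 16 (chr16:10480059-10528418). Promoter sequences of 6 members were matched in RefSeq (GRCm38.p6), and those of Cd74, Ciita and H2-Ab1 were not. The boxes read by the complex that recruits Ciita are known as X1 and Y. The 150 bases upstream of the RefSeq start are shown for 5 members so that peptide-binding chains can be set beside the chains that modify loading. The gene positions above are from GENCODE M21, which starts H2-DMb2, H2-DMb1 and H2-Oa further upstream. By those positions the bases shown lie wholly inside H2-DMb2 and partly inside H2-DMb1 and H2-Oa. Capitals mark matches to an X1 core (AGNNACNNATG, N for any base) and to a Y core (CCAAT, which reads ATTGG when it lies on the opposite strand). Both strands were searched, and no match of one motif overlapped a match of the other.
H2-Aa (chr17:34287824-34287973, minus strand): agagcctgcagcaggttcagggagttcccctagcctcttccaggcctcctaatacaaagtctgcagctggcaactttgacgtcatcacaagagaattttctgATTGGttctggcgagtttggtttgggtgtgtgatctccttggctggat
H2-Eb1 (chr17:34305717-34305866, plus strand): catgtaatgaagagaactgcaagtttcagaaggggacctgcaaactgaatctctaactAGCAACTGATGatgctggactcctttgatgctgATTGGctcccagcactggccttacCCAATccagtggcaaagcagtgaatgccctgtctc
H2-DMb1 (chr17:34153041-34153190, plus strand): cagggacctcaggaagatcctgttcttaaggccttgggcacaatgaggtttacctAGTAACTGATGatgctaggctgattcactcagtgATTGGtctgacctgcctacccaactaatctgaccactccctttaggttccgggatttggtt
H2-DMb2 (chr17:34145099-34145248, plus strand): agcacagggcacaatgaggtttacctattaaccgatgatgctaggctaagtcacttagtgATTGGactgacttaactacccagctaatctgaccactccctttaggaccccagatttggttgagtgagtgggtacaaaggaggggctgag
H2-Oa (chr17:34092229-34092378, plus strand): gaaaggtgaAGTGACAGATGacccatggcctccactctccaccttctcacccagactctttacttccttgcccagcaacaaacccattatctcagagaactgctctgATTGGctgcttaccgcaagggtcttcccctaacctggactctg

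The X1 core was found in H2-Eb1, H2-DMb1 and H2-Oa, that is in 3 of the 6 members with a promoter, against 2.60% of all 32851 promoters searched over 250 bases upstream. The Y core was found in all 6, in H2-DMa only in the second of its 2 promoters, against 33.8% of all promoters. From the first base of X1 to the first base of the Y core downstream of it, the distance was 33 bases in H2-Eb1, 34 bases in H2-DMb1 and 98 bases in H2-Oa. H2-DMb2 carries the same stretch as H2-DMb1 after 15 identical bases. There it reads attaaccgatg and differs from the X1 core of H2-DMb1 by G2T, at a fixed letter, and T7C, at a free letter, with positions counted from 1 at the 5′ end of the core. A match is a description of these letters only.

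Cells were used as annotated by the authors, 58794 cells in 28 clusters and 10 cell types, and UMIs summed per mouse ranged from 149558935 to 187728350. The median UMI count per cell was over 10000 in control mice 1 and 3 and stress mouse 1, and between 7166 and 9032 in control mouse 2 and stress mice 2 and 3. The control libraries were counted with Cell Ranger 9.0.0 and the stress libraries with 7.1.0, so the software version and the effect of stress cannot be told apart wherever the groups are compared. Any 2 libraries shared 13 to 40 cell barcodes, at most 0.424% of the smaller one. Levels are given as CPM, the UMIs of a gene scaled so that the UMIs of the same cells have a fixed total. They are not divided by transcript length and are therefore compared between cells and mice, not between genes. In such sums, fewer cells carrying a gene and less RNA per cell cannot be told apart.

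The chains that bind peptide were highest in DCs and Monocytes, followed by B cells, and were far lower in the other 5 of the 8 types compared. H2-Aa, the alpha chain of the A molecule, had a level of 2498 ± 571 CPM in DCs (SD, n = 6 mice), 2189 ± 958 in Monocytes and 1045 ± 523 in B cells. DCs and Monocytes overlapped, with DCs higher in 4 of 6 mice. B cells lay above the next type in all 6 mice without overlap, since ECs followed with 44.3 ± 39.6 CPM, inflammatory myeloid cells with 37.5 ± 37.9 and NK/T cells with 22.8 ± 23.3. Tumor cells had the lowest level, 6.80 ± 5.67 CPM. H2-Ab1, the beta chain of the A molecule, H2-Eb1, the beta chain of the E molecule, and Cd74 fell into the same 3 upper types. H2-Ea, the alpha chain gene of the E molecule, was not among the genes counted, so H2-Eb1 levels do not show an E molecule. Cd74, which lies on chromosome 18, was slightly higher in Monocytes (3216 ± 1554 CPM) than in DCs (3188 ± 901), although DCs were above in 4 of 6 mice. Monocytes were 10.6% of the annotated cells and gave 63.5% of all H2-Aa UMIs, and DCs were 2.65% of the cells and gave 27.8%.

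**Figure D1:**
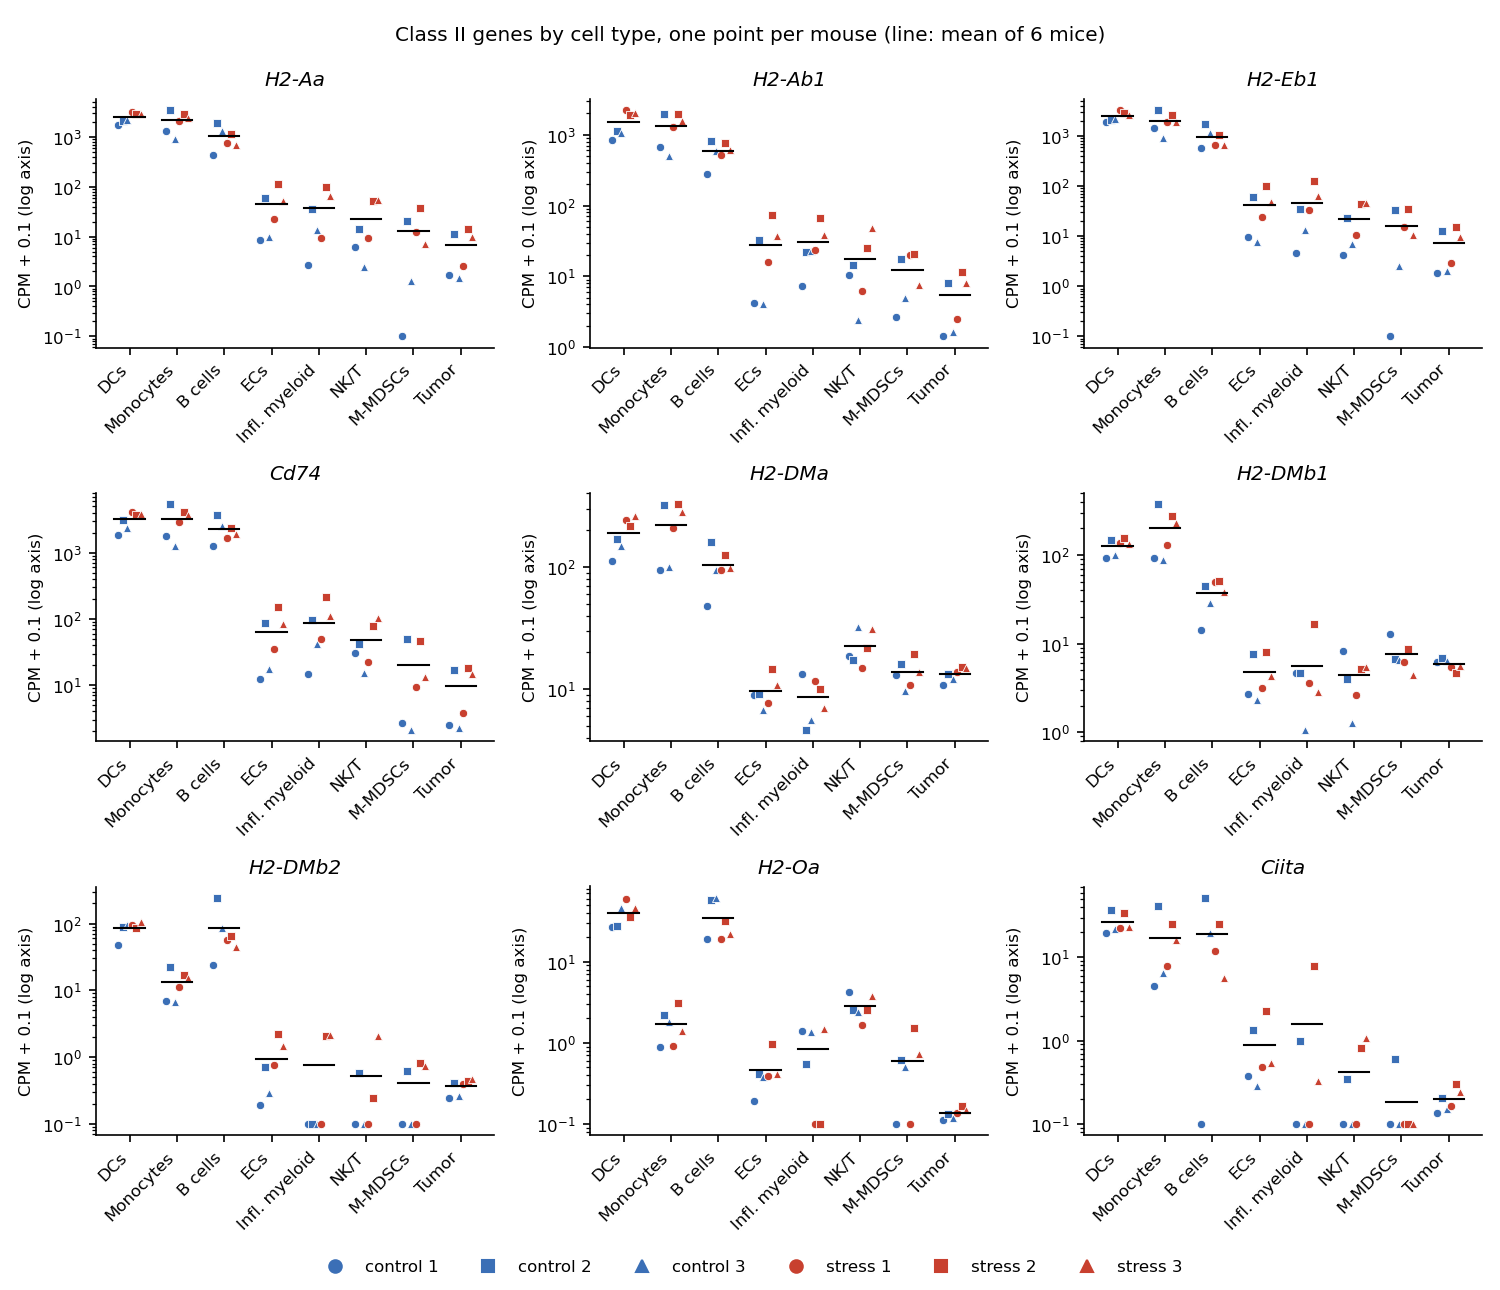
Level of each of the 9 class II genes (CPM + 0.1, log axis) in the 8 cell types with at least 10 cells in every mouse. Each point is 1 mouse, blue for control and red for stress, and the line is the mean of 6 mice. DCs, Monocytes and B cells stand above the other types for H2-Aa (means of 2498, 2189 and 1045 CPM against 44.3 CPM in ECs), whereas H2-Oa is near 1.63 CPM in Monocytes and H2-DMa does not drop as far in tumor cells.

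Within these types the genes were carried by single clusters. DC cluster 20 had an H2-Aa level of 6695 ± 1098 CPM and Monocyte cluster 11 one of 4682 ± 545, and the ranges of these clusters overlapped neither each other nor B cells. In cluster 11 the level in the mouse with most was only 1.33 times that in the mouse with least. The other DC cluster, 19, held 443 ± 146 CPM, and Monocyte clusters 12 and 13 held 318 ± 310 and 532 ± 585 CPM. Cells thinned to 1000 UMIs carried a median of 15 to 24 UMIs of the 3 peptide-binding chains together in cluster 20, depending on the mouse, and of 6 to 14 in cluster 11. In clusters 12 and 13 the median was between 0 and 3, and the share of cells with any such UMI went from 2.17% to 75.8%.

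The label of DC cluster 20 matched its markers, whereas that of cluster 19 did so weakly. The 7 DC markers (Flt3, Xcr1, Clec9a, Cd209a, Ccr7, Siglech and Itgax) summed to 510 to 1589 CPM in cluster 20 and to 7.42 to 104 CPM in cluster 19. In cluster 19, 4 tumor cell markers summed to 426 to 722 CPM and 7 monocyte markers to 423 to 807 CPM, and 37.6% of its cells were called doublets (2 cells under 1 barcode), against 2.32% in cluster 20. Its median UMI count per cell was 1567, against 7124 in cluster 20. In Monocyte cluster 11 the 7 monocyte markers summed to 6497 to 9369 CPM and the 7 DC markers to 43.1 to 217 CPM. Among them C1qa, a complement gene of macrophages, was at 1930 ± 843 CPM in cluster 11 and 65.7 ± 42.8 CPM in cluster 12, and Ly6c2, a gene of inflammatory monocytes, at 120 ± 67.3 and 569 ± 144 CPM. Monocytes is the name of the deposited annotation and is kept here, although cluster 11 carried more of the macrophage gene and less of the monocyte gene than cluster 12. The class II level of DC cluster 19 is given as that of the cluster and not of a cell type.

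Levels in Monocyte clusters 12 and 13 spanned factors of 63.0 and 65.8 between mice. In cluster 12, H2-Aa was at 29.8, 685 and 10.9 CPM in control mice 1, 2 and 3 and at 77.7, 537 and 567 CPM in stress mice 1, 2 and 3. In cluster 13 the values were 34.1, 940 and 22.3 CPM in control mice and 134, 1467 and 597 CPM under stress. In both clusters the 3 low mice were control 1, control 3 and stress 1, which are the 3 with a median over 10000 UMIs per cell, and the 3 high mice were the other 3. Cd74 followed the same split, with 66.1 to 311 CPM against 1128 to 1602 CPM in cluster 12. The same mice had the lower share of Monocytes in cluster 11 in the control group, 25.5% and 18.3% against 51.7% in control mouse 2, and 38.7% to 41.6% under stress. The part of depth in this split was not tested.

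**Figure D2:**
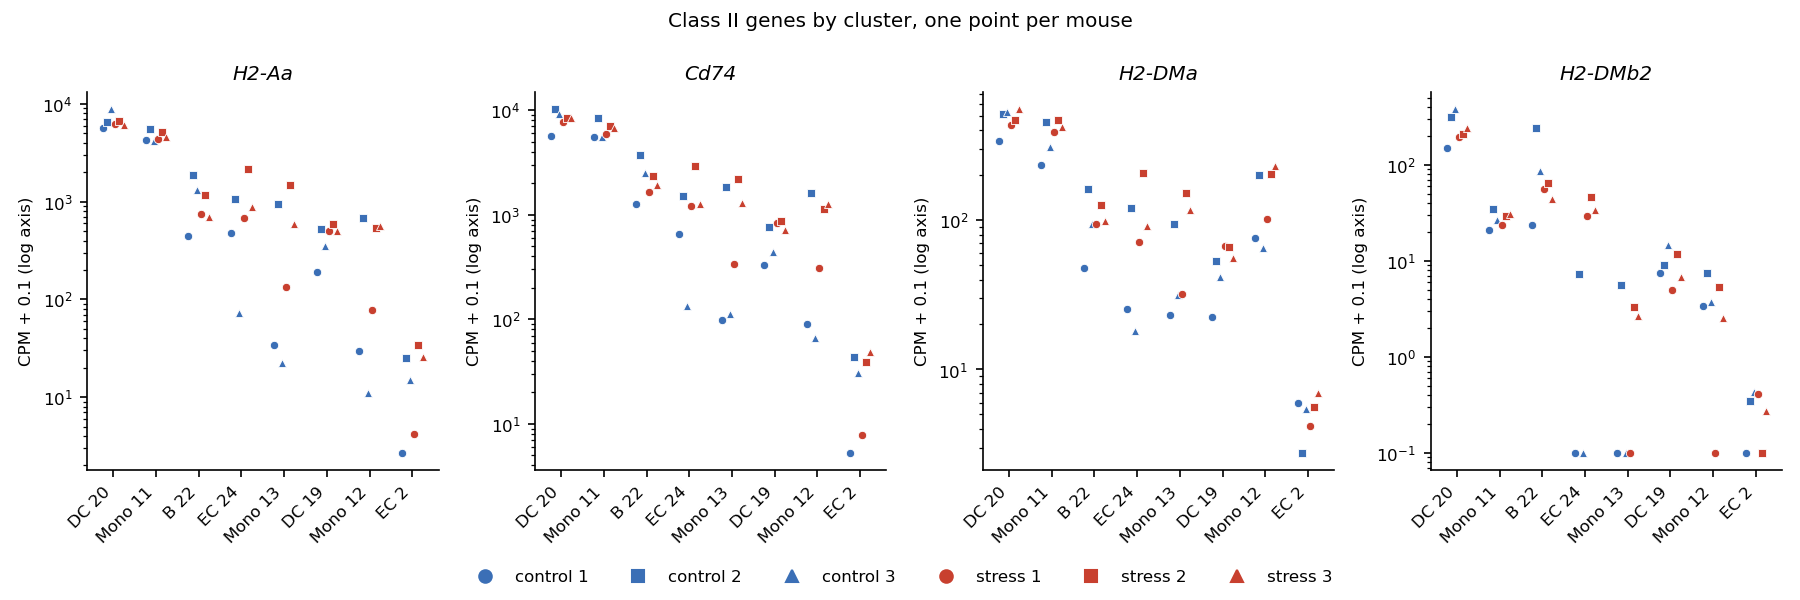
Levels of H2-Aa, Cd74, H2-DMa and H2-DMb2 (CPM + 0.1, log axis) in 8 clusters named by cell type and cluster number, with 1 point per mouse. DC cluster 20 and Monocyte cluster 11 are high in every mouse (H2-Aa means of 6695 and 4682 CPM), Monocyte clusters 12 and 13 spread over factors of 63.0 and 65.8 in H2-Aa, and H2-DMb2 separates DC cluster 20 (mean of 249 CPM) from Monocyte cluster 11 (mean of 27.5 CPM).

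The chaperones were spread differently over the antigen-presenting cells. H2-DMb1, one of the 2 beta chains of H2-DM, reached 369 ± 110 CPM in Monocyte cluster 11, 323 ± 83.2 CPM in DC cluster 20 and 37.5 ± 14.1 CPM in B cells. The second beta chain, H2-DMb2, was at 249 ± 85.2 CPM in DC cluster 20, 86.1 ± 79.5 CPM in B cells and 27.5 ± 4.88 CPM in Monocyte cluster 11. Per H2-DMb1 UMI, there were thus 0.774 H2-DMb2 UMIs in DC cluster 20 and 0.0770 in Monocyte cluster 11 (means of 6 mice), and the mice of the 2 clusters did not overlap (0.533 to 1.01 against 0.0622 to 0.0957). The 2 transcripts are 94.7% identical over 1219 aligned bases, and 26.6% of the 50-base windows of H2-DMb1 occur in H2-DMb2, so reads from such stretches could not be told apart by sequence. In the last 500 bases, where 3′ libraries read, this was 20.4% for H2-DMb1 and 0% for H2-DMb2.

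H2-Oa, the alpha chain of the brake on H2-DM, was a gene of DCs and B cells. It was at 115 ± 35.5 CPM in DC cluster 20 and 35.0 ± 19.6 CPM in B cells, and at 3.60 ± 2.10 CPM in Monocyte cluster 11. DC cluster 20 lay above B cells in all 6 mice without overlap. DCs gave 67.2% of all H2-Oa UMIs and Monocytes 7.69%, the reverse of their order for H2-DMb1, 13.2% and 55.0%. Ciita, the transactivator, was at 74.0 ± 26.7 CPM in DC cluster 20 and 30.7 ± 16.8 CPM in Monocyte cluster 11. In B cells it was at 0, 51.9 and 19.8 CPM in control mice and 11.7, 24.8 and 5.62 CPM under stress, a wide range that includes the mean of Monocytes as a whole (16.8 CPM).

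In DCs as a whole, 4 of the 9 members rose in stress mice, namely H2-Ab1, H2-DMa, H2-Aa and Cd74, and none fell. H2-Ab1 was at 846, 1117 and 1068 CPM in control mice 1, 2 and 3 and at 2224, 1907 and 2049 CPM in stress mice 1, 2 and 3. Each stress mouse exceeded every control mouse, and the log2 fold change of stress over control was 1.14 ± 0.15 (SE, adjusted p = 0.00401, edgeR's quasi-likelihood test over all genes with Benjamini-Hochberg adjustment, threshold 0.05). For H2-Aa the values were 1759, 2056 and 2218 CPM against 3245, 2858 and 2849 CPM. The groups did not overlap, with a log2 fold change of 0.68 ± 0.15 (adjusted p = 0.0317, edgeR). Cd74 went from 1858, 3163 and 2387 CPM to 4129, 3680 and 3911 CPM, a log2 fold change of 0.78 ± 0.18 (adjusted p = 0.0403, edgeR). H2-DMa, the alpha chain of H2-DM, went from 112, 170 and 149 CPM to 240, 216 and 262 CPM, a log2 fold change of 0.83 ± 0.17 (adjusted p = 0.0240, edgeR). Neither gene overlapped between the groups, with control mouse 2 the highest of its group in both.

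The other 5 members did not pass the test in DCs. H2-Eb1 was at 1940, 2074 and 2226 CPM in control mice and 3286, 2855 and 2589 CPM under stress, without overlap and with a log2 fold change of 0.60 ± 0.15 (adjusted p = 0.0538, edgeR). The log2 fold change was 0.39 ± 0.18 for H2-DMb1, 0.37 ± 0.21 for H2-DMb2, 0.55 ± 0.27 for H2-Oa and 0.08 ± 0.26 for Ciita, with adjusted p from 0.286 to 0.933 in edgeR. Ciita overlapped widely, at 19.5, 37.2 and 21.7 CPM in control mice and 22.7, 33.8 and 23.4 CPM under stress. Over all 10533 genes tested in DCs, 2.64% were called in either direction and 2.13% as higher under stress. The median log2 fold change of the 9 members was 0.60, and 0.27 without called doublets, against -0.02 over all genes in both fits. Among the 7 members with at least 20 UMIs in every mouse, 5 had all stress mice above all control mice, as did 8.73% of all such genes.

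The count of 4 rested on single libraries. Without control mouse 1, control mouse 3, stress mouse 1 or stress mouse 3 only H2-Ab1 was called (0.668% to 1.21% of all genes were). Over all fits that left out a mouse, the log2 fold change was 0.61 to 0.77 for H2-Aa, 0.62 to 0.97 for Cd74 and 0.71 to 0.94 for H2-DMa. Without control mouse 2 or stress mouse 2 the 4 were called (3.66% and 2.45% of all genes were). H2-Ab1 was thus called in all 6 fits that left out a mouse (adjusted p from 0.00336 to 0.0277 in edgeR). Without called doublets no member was called in DCs by edgeR (0.374% of all genes were), and the log2 fold change of H2-Ab1 was then 0.84 (adjusted p = 0.0997). DESeq2 called 5 members, the 4 and H2-Eb1, against 3.76% of all genes. The p-values weigh the group difference against the spread between these 6 mice, estimated with help from all genes. They do not separate stress from the counting version. Within the mice over 10000 UMIs per cell, H2-Ab1 was at 957 CPM on average in 2 control mice and at 2224 CPM in 1 stress mouse, and within the other mice at 1117 CPM in 1 control mouse and at 1978 CPM in 2 stress mice.

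The mix of the 2 DC clusters moved with these levels. Cluster 20 made up 25.3%, 40.5% and 25.9% of the DCs in control mice 1, 2 and 3, as against 50.4%, 63.3% and 52.2% in stress mice 1, 2 and 3. Each stress mouse exceeded every control mouse (two-sided exact permutation test, p = 0.10, the smallest that 3 against 3 mice allow). Without called doublets the shares were 27.7%, 53.3% and 30.6% against 55.6%, 79.3% and 62.5%, still apart. Of the UMIs of all genes in DCs, cluster 20 gave 28.5%, 25.3% and 22.1% in control mice and 47.6%, 37.4% and 41.5% under stress. Cluster 19 thus gave most of the UMIs summed over DCs in every mouse. Of the H2-Aa UMIs of all DCs, however, cluster 20 held 80.9% to 92.3%. The DC marker sum of the whole class moved as well, from 150 to 282 CPM in control mice to 534 to 681 CPM under stress, and the 4 tumor cell markers summed to 334 to 386 CPM in control mice and 273 to 397 CPM under stress. The part of the mix in the change of each gene was not tested beyond the fits within clusters.

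Within DC cluster 20 no member passed the test in edgeR (0 of 9, against 0.313% of the 6387 genes tested in this cluster, and none at an unadjusted p under 0.05). DESeq2 called none either, with 1 at an unadjusted p under 0.05. H2-Aa was at 5701, 6569 and 8828 CPM in control mice and 6266, 6653 and 6152 CPM under stress, a log2 fold change of -0.06 ± 0.25. The stress mice lay inside the range of the control mice. H2-Ab1 was at 2711, 3602 and 4287 CPM in control mice and 4201, 4502 and 4501 CPM under stress, so that only control mouse 3 reached the stress group, and its log2 fold change was 0.41 ± 0.24 (adjusted p = 0.505, edgeR). Ciita was at 62.2, 119 and 88.2 CPM in control mice and 47.7, 74.3 and 52.1 CPM under stress, with overlap and a log2 fold change of -0.59 ± 0.27 (adjusted p = 0.375, edgeR), which was -0.29 without control mouse 2. The median over the 9 members was -0.15. Only 20 cells of control mouse 1 fell in this cluster, which limits the precision.

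In DC cluster 19, 7 members passed the filter on low counts and none was called in edgeR, against 0.425% of all genes tested there, although 6 of the 7 had an unadjusted p under 0.05. The share of all genes at that unadjusted cut is not given here. H2-Ab1 was at 104, 274 and 157 CPM in control mice and 431, 354 and 307 CPM under stress. The groups did not overlap, and the log2 fold change was 1.02 ± 0.27 (adjusted p = 0.200, edgeR). As did 5.26% of all genes with at least 20 UMIs in every mouse, it had each stress mouse above the control group. DESeq2 called this gene alone (adjusted p = 0.0211, 0.733% of all genes), and without control mouse 2 edgeR called H2-Ab1 and Cd74 (0.867% of all genes). Without called doublets 6 members were tested and none was called in edgeR (0.449% of all genes were), none with an unadjusted p under 0.05, and the median log2 fold change turned from 0.61 to -0.17, with H2-Ab1 at 0.25 ± 0.43. In this cluster the DC markers summed to 7.42 to 49.9 CPM in control mice and 89.5 to 104 CPM under stress, and their part in the change was not tested.

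**Figure D3:**
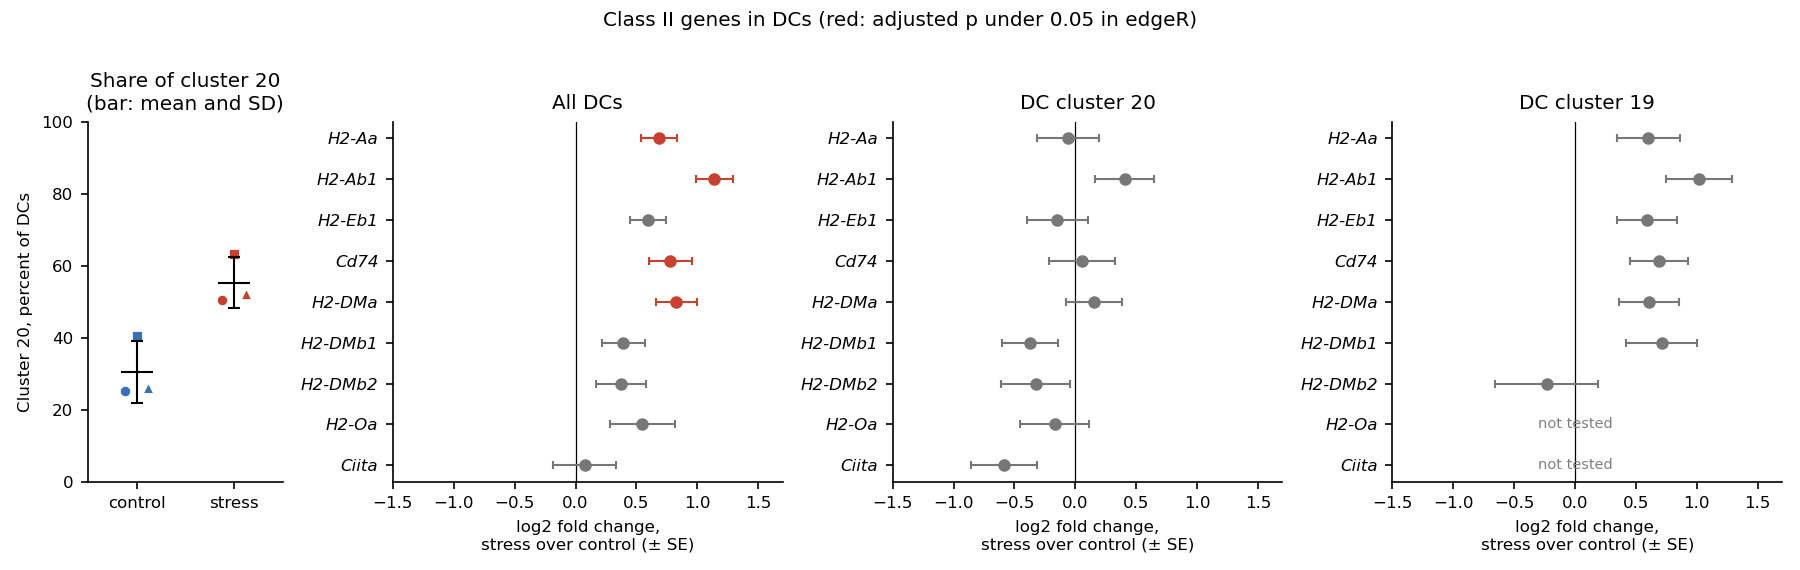
Left, share of DCs in cluster 20 (percent) with 1 point per mouse and the mean ± SD of each group, from 25.3% to 40.5% in control mice and from 50.4% to 63.3% under stress. Right, log2 fold change of stress over control (± SE, edgeR) of each class II gene in all DCs and in clusters 20 and 19, red where the adjusted p was under 0.05. The 4 red genes of all DCs (H2-Aa, H2-Ab1, Cd74 and H2-DMa) lie nearer to 0 in cluster 20, and H2-Oa and Ciita were too low in cluster 19 to be tested.

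In Monocytes none of the 9 members was called by edgeR or DESeq2, and none had an unadjusted p under 0.05 in either (0.122% of all genes were called by edgeR). H2-Aa was at 1335, 3454 and 911 CPM in control mice 1, 2 and 3 and at 2107, 2953 and 2374 CPM in stress mice 1, 2 and 3. Control mouse 2 was the highest and the other 2 control mice the lowest of the 6, and the log2 fold change was 0.45 ± 0.44 (adjusted p = 0.693, edgeR). It lay between 0.13 without control mouse 3 and 1.18 without control mouse 2, and passed the test in neither. H2-DMa was at 93.5, 323 and 100 CPM in control mice and 210, 328 and 281 CPM under stress, a log2 fold change of 0.72 ± 0.45 (adjusted p = 0.549, edgeR). Without control mouse 2 its log2 fold change was 1.53 and it passed the test (adjusted p = 0.0448, edgeR), the single member that did. Within the mice over 10000 UMIs per cell the Monocyte level of H2-Aa was higher in the stress mouse, 2107 against 1123 CPM, and within the others it was lower, 2663 against 3454 CPM.

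In Monocyte cluster 11, which held 86.5% to 98.4% of the H2-Aa UMIs of all Monocytes, none of the 9 members was called by edgeR or DESeq2, and none had an unadjusted p under 0.05 in either (0.102% of all genes were called by edgeR). H2-Aa was at 4292, 5496 and 4140 CPM in control mice and 4389, 5208 and 4564 CPM under stress, a log2 fold change of 0.11 ± 0.18. The stress mice lay inside the range of the control mice. Clusters 12 and 13 gave no call in edgeR either (0 of 7 and 0 of 6, against 0.218% and 0.0984% of all genes, with none at an unadjusted p under 0.05), and none in DESeq2, which had 1 unadjusted p under 0.05 in each. With the replicate number as a block in edgeR, 6 of 7 and 6 of 6 had an unadjusted p under 0.05, and none was called. The median log2 fold change of the members was then 1.84 and 1.75, against 0.73 and 1.02 without the block. The share of all genes at that unadjusted cut is not given for these fits. In DCs with the block, 2101 of 10533 genes met it. Leaving out control mouse 2 gave 5 calls in cluster 12, where 1.10% of all genes were then called, among them H2-Aa with a log2 fold change of 4.64 (adjusted p = 0.0321, edgeR). In cluster 13 the same omission gave H2-Aa a log2 fold change of 4.61, against 1.17 ± 1.17 with all mice, and no call (adjusted p = 0.0667, edgeR).

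B cells, ECs and NK/T cells gave no call among the members in edgeR or DESeq2, although in NK/T cells 4 members missed it with an unadjusted p under 0.05. In B cells (0 of 8, against 0.483% of all genes, 2 at an unadjusted p under 0.05 in edgeR and 0 in DESeq2) the lowest values of the log2 fold change were those of H2-DMb2, -1.07 ± 0.46 (adjusted p = 0.425, edgeR), and H2-Oa, -0.94 ± 0.37 (adjusted p = 0.393, edgeR). An unadjusted p under 0.05 in edgeR was reached by 646 of the 5796 genes tested in B cells. H2-DMb2 was at 23.7, 243 and 85.6 CPM in control mice and 56.3, 64.0 and 44.2 CPM under stress. Control mouse 2 stood apart and control mouse 1, with 20 B cells, was the lowest. Without control mouse 2 the log2 fold change of H2-DMb2 was -0.24, and without control mouse 3 that of H2-Oa was -0.59. In these cells the 7 DC markers summed to 33.2 to 202 CPM in control mice and 165 to 383 CPM under stress, and the 4 B cell markers to 441 to 1270 CPM and 541 to 554 CPM.

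In ECs 6 members were tested and none was called in edgeR (0.213% of all genes were), with none at an unadjusted p under 0.05, and DESeq2 had 1 such p and no call. H2-Aa was at 8.46, 60.4 and 9.86 CPM in control mice and 22.9, 112 and 52.0 CPM under stress, with overlap and a log2 fold change of 1.21 ± 0.83, which lay between 0.50 without stress mouse 2 and 2.73 without control mouse 2 and passed the test in neither. Cluster 24, 1.07% to 2.77% of the ECs, held 22.6% to 62.2% of these UMIs, at 888 ± 704 CPM. Of its cells 89.5% were called doublets, and beside 4586 to 5805 CPM of the 6 EC markers it carried 1034 to 2875 CPM of the 7 monocyte markers. In cluster 2, the largest EC cluster with 4789 cells, the level of H2-Aa was 17.8 ± 12.7 CPM. By mouse it was at 2.60, 25.3 and 14.9 CPM in control mice and 4.06, 34.3 and 25.4 CPM under stress. Barcodes without annotation held 3.10, 46.4 and 12.4 CPM in control mice and 9.02, 85.1 and 55.7 CPM under stress. The part of RNA from other cells in the low levels of ECs was not tested. Thinned to 1000 UMIs, 0.264% to 4.20% of the ECs had an H2-Aa UMI, against 0.136% to 1.55% of tumor cells.

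In NK/T cells 6 members were tested, 4 of them had an unadjusted p under 0.05 in edgeR and none was called (0.857% of all genes were), and DESeq2 called none and had 1 unadjusted p under 0.05. The 0.857% is the share called, not the share at the unadjusted cut. H2-Aa was at 6.13, 14.3 and 2.32 CPM in control mice and 9.23, 50.9 and 54.0 CPM under stress, a log2 fold change of 2.03 ± 0.55 (adjusted p = 0.138, edgeR). Stress mouse 1 lay within the control range, and without it edgeR called H2-Aa and Cd74 (0.494% of all genes were called). Without called doublets, 9.04% of these cells, 5 members were tested and none was called (4.67% of all genes were), H2-Aa had a log2 fold change of 1.10 ± 0.40 (adjusted p = 0.145, edgeR), and the median over the members was 0.53, against 1.22 with them. Without control mouse 2 the log2 fold change of H2-Aa was 3.43 and was not called. Inflammatory myeloid cells (5 members tested, 0.00% of all genes called) and M-MDSCs (5 members tested, 0.561% called) gave no call in edgeR or DESeq2, with 2 and 0 members at an unadjusted p under 0.05 in edgeR and 4 and 0 in DESeq2. With the replicate number as a block, H2-Eb1 was called in inflammatory myeloid cells (log2 fold change 2.35 ± 0.35, adjusted p = 0.0389, edgeR, with 0.0976% of all genes called), against 2.11 ± 0.70 and an adjusted p of 0.994 without it. The effect of stress did not pass a test of difference between Monocytes and DCs, Monocytes and ECs, or DCs and ECs for any member in edgeR (0 of 9 in each, against 0.00%, 0.00% and 0.0202% of all genes), with 0, 3 and 1 members at an unadjusted p under 0.05. A rise in DCs is thus not shown to differ from Monocytes, where the same genes missed the threshold.

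Thinned to 1000 UMIs per cell, DCs had an H2-Aa UMI in 57.4%, 68.3% and 45.9% of the cells in control mice and 70.0%, 80.5% and 74.6% under stress. The groups did not overlap (two-sided exact permutation test, p = 0.10, 0.823 after adjustment over all members and types). Without thinning the shares were 46.8%, 75.5% and 39.9% against 72.3%, 87.0% and 72.8%, with overlap. Thinning left out 32, 61 and 47 of the 79, 269 and 158 DCs in control mice. Under stress it left out 21, 41 and 69 of 141, 553 and 356. The cells left out lay in cluster 19, so the thinned shares rest on unequal parts of the groups. In Monocytes the thinned shares were 24.6%, 70.2% and 14.6% against 42.6%, 60.6% and 56.1%, far above the tumor cells given above. These followed the levels of the same mice, control mouse 2 highest.

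In tumor cells the members differed in how far their levels spread between mice. H2-Aa was at 1.57, 11.2 and 1.38 CPM in control mice and 2.49, 14.4 and 9.77 CPM under stress, and its level in tumor cells was 3.16% to 6.07% of that over all cells of the same mouse. Across the 6 mice the tumor cell level of H2-Aa spanned a factor of 10.4 and the level over all cells a factor of 12.6, and for Cd74 these were 8.28 and 14.1. The tumor cell levels of H2-Ab1 and H2-Eb1 spanned factors of 8.51 and 8.78. H2-DMa was at 10.8, 13.1 and 12.1 CPM in control mice and 13.7, 15.1 and 14.8 CPM under stress, a factor of 1.40 in tumor cells against 3.75 over all cells. For H2-DMb1 these factors were 1.49 and 3.89, so the tumor cell levels of H2-DMa and H2-DMb1 spanned less between mice than those of H2-Aa and Cd74. H2-DMb2 lay between them with a factor of 2.57, and H2-Oa and Ciita, with a factor of 5.69 each, rested on 2 to 24 UMIs per mouse. Tumor cells, 50.4% of the annotated cells, gave 40.5% of all H2-DMa UMIs and 27.6% of all H2-DMb1 UMIs, against 3.28% for H2-Aa. H2-DMa overlaps other counted genes, CR974462.3 on the same strand and Brd2 and CR974462.4 on the opposite one, so the source of its UMIs in tumor cells is uncertain.

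H2-DMb1 was the one member called in tumor cells, of 8 tested. It was at 6.10, 6.75 and 6.28 CPM in control mice and 5.33, 4.54 and 5.43 CPM under stress. The log2 fold change was -0.46 ± 0.13 (adjusted p = 0.0463, edgeR, where 21.4% of all genes were called and 9.46% were called lower). It was not called in any of the 6 fits that left out a mouse, where its log2 fold change was -0.54 to -0.35, nor without called doublets. H2-DMa went the other way in the same cells, from 10.8, 13.1 and 12.1 CPM in control mice to 13.7, 15.1 and 14.8 CPM under stress. Its log2 fold change was 0.13 ± 0.10 and it was not called. The share of all genes whose groups did not overlap in tumor cells is not given here.

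**Figure D4:**
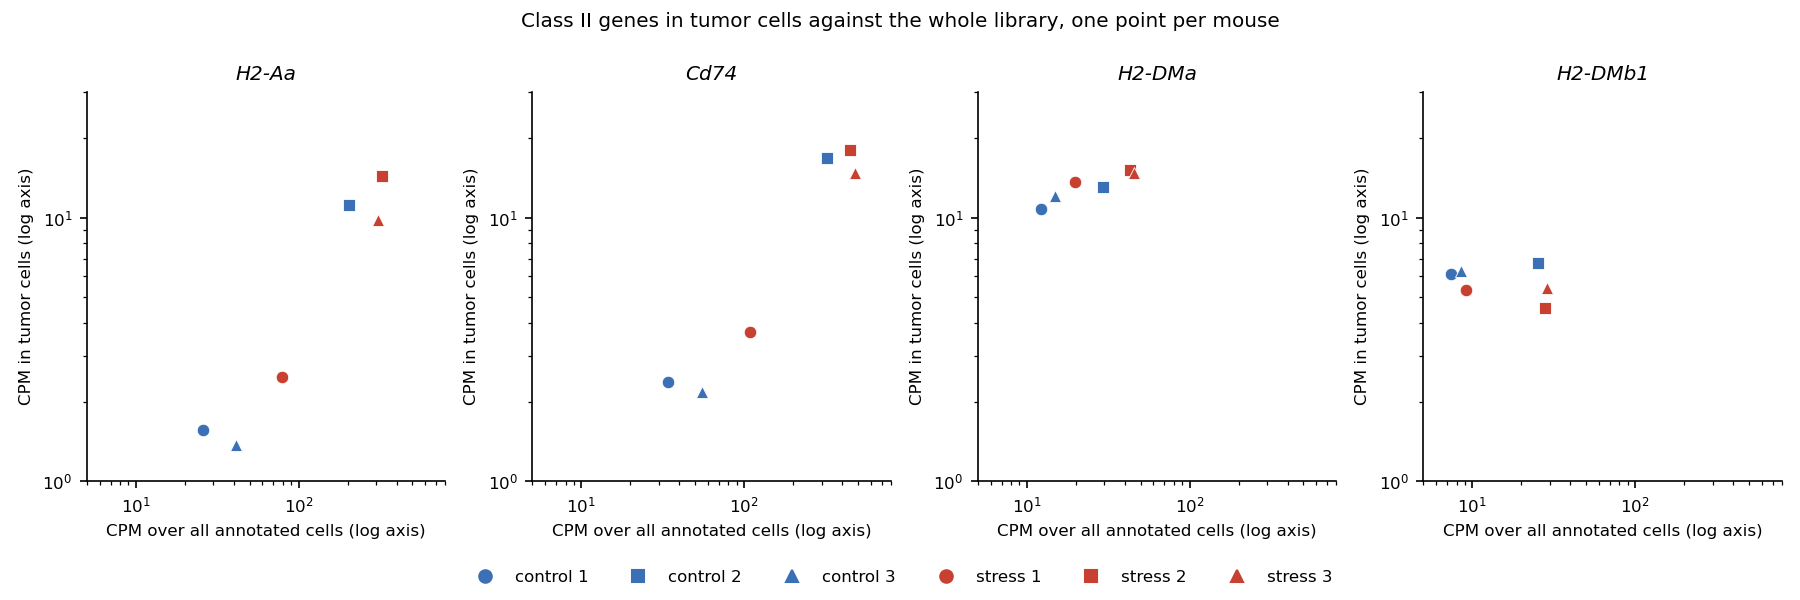
Level of H2-Aa, Cd74, H2-DMa and H2-DMb1 in tumor cells (CPM, log axis) against the level over all annotated cells of the same library (CPM, log axis), with 1 point per mouse. H2-Aa and Cd74 in tumor cells spread over factors of 10.4 and 8.28 along with the library, whereas H2-DMa stays between 10.8 and 15.1 CPM and H2-DMb1 between 4.54 and 6.75 CPM.

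The ratio between the chains of a pair differed between the groups in these mice. Per H2-Aa UMI, DC cluster 20 held 0.475, 0.548 and 0.486 H2-Ab1 UMIs in control mice 1, 2 and 3, as against 0.670, 0.677 and 0.732 in stress mice 1, 2 and 3. In Monocyte cluster 11 the ratio was 0.495, 0.564 and 0.526 in control mice and 0.607, 0.654 and 0.651 under stress. Each stress mouse exceeded every control mouse in both clusters (two-sided exact permutation test, p = 0.10, 0.20 after adjustment over cell types and clusters), as was the case for 8.85% and 6.58% of all genes set against H2-Aa in the same cells. The groups parted in this way in 4 of the 5 cell types with at least 20 UMIs of both genes in every mouse (DCs, Monocytes, B cells and ECs) against 0.810%, 0.237%, 1.49% and 0.00858% of all genes, and not in tumor cells (0.00649% of all genes), where the ratio was 0.840, 0.713 and 1.12 in control mice and 0.959, 0.780 and 0.800 under stress. In ECs the 1 gene of 11659 that parted was H2-Ab1 itself. In these types H2-Aa spread widely between mice or rose under stress, so few genes could part upward from it. The shares over cell types therefore do not measure how rare the ratio is. Among clusters the groups parted in 4 of the 9 with at least 20 UMIs of both genes in every mouse. In Monocyte cluster 13 the means ran the other way, 1.47 in control mice and 0.703 under stress, with overlap. In both DC cluster 20 and Monocyte cluster 11 the ratio was lower in the mice with a median over 10000 UMIs per cell than in the other mice of the same group, and the part of depth was not tested. The counting version goes with the groups here too and cannot be told apart.

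For H2-DM the ratio was lower under stress in most clusters, but not in each. Per H2-DMa UMI, Monocyte cluster 11 held 1.16, 1.21 and 1.14 H2-DMb1 UMIs in control mice and 0.635, 0.885 and 0.904 under stress. DC cluster 20 held 0.833, 0.901 and 0.712 in control mice and 0.578, 0.679 and 0.456 under stress. Each stress mouse was below every control mouse in both (two-sided exact permutation test, p = 0.10, 0.16 after adjustment), as was the case in 8 of the 10 clusters with at least 20 UMIs of both genes in every mouse, of which 6 were tumor cell clusters. In the other 2 the groups overlapped with a slightly higher mean under stress, 0.743 in control mice and 0.766 under stress in Monocyte cluster 13 and 0.523 and 0.534 in tumor cell cluster 9. Over whole cell types the groups overlapped in DCs and ECs. Of all genes set against H2-DMa, 22.4% parted in this direction in Monocyte cluster 11, 16.0% in DC cluster 20 and 34.6% in tumor cells, so that a lower ratio to H2-DMa was common. H2-Eb1 per H2-Aa UMI was lower in all stress mice in Monocyte cluster 11, 1.09, 0.979 and 1.01 against 0.932, 0.933 and 0.835 (10.4% of all genes).

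**Figure D5:**
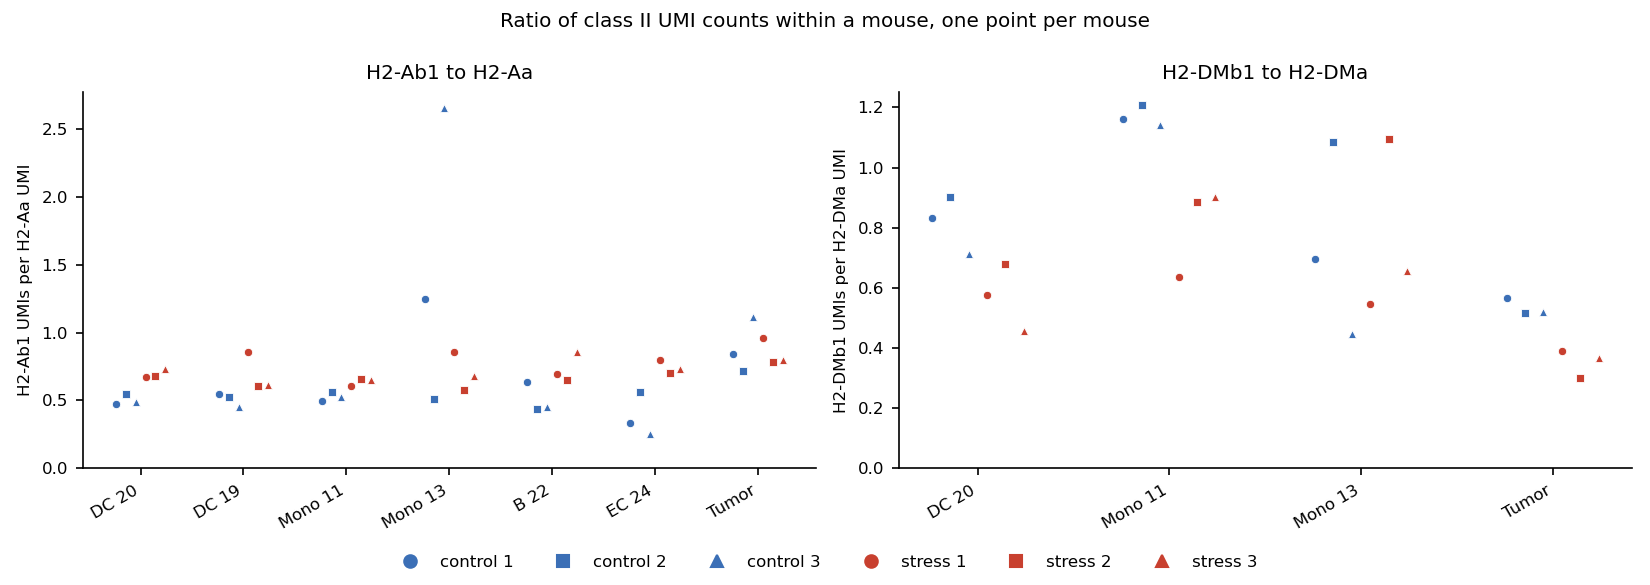
Ratio of UMIs within a mouse, H2-Ab1 per H2-Aa UMI (left) and H2-DMb1 per H2-DMa UMI (right), by cell type or cluster with 1 point per mouse. In DC cluster 20 and Monocyte cluster 11 the red stress mice lie above the blue control mice on the left (0.670 to 0.732 against 0.475 to 0.548 in DC cluster 20) and below them on the right, and the 2 control mice that stand out in Monocyte cluster 13 on the left have few H2-Aa UMIs.

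Of the other genes of the pathway, 6 of the 33 tested in DCs rose and none fell, where 2.13% of all genes were called higher. They were Cd40, a receptor through which T cells activate DCs (log2 fold change of 1.40 ± 0.25), Irf8, a transcription factor of conventional DCs (1.30 ± 0.24), Ifi30, the thiol reductase that opens antigens for loading (1.03 ± 0.22), Jak2, a kinase of interferon gamma signaling (0.94 ± 0.20), H2-Ob, the beta chain that pairs with H2-Oa (0.87 ± 0.21), and Sppl2a, the protease that clears the last stub of Cd74 (0.74 ± 0.16). Their adjusted p lay between 0.0126 and 0.0470 in edgeR. The median over the list was 0.22, and these genes were summed over the same changing mix of clusters 19 and 20. The list was chosen with earlier results of these data known. The calls of this paragraph are those of the main fit. Without called doublets 0.374% of all genes were called in DCs, and whether the 6 genes stayed called there is not reported here. Within DC cluster 20 only Marchf1, the ubiquitin ligase that takes class II from the surface, was called of 30 tested (0.313% of all genes were), with a log2 fold change of -1.69 ± 0.29 (adjusted p = 0.0377, edgeR). None was called by edgeR in Monocytes (0 of 34), B cells (0 of 27) or ECs (0 of 34), and 1 of 31 was called in NK/T cells (Jak2, higher, against 0.857% of all genes). In tumor cells 5 of 34 were called (2 higher and 3 lower), where 21.4% of all genes were. In EC cluster 18 Mif, a ligand of surface Cd74, fell with a log2 fold change of -1.40 ± 0.19 (adjusted p = 0.0138, edgeR, with 1.02% of all genes called).

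Across the 28 clusters, the members formed tiers of likeness (Pearson's r of log2(CPM + 1) of the mean level per cluster, a description over clusters that share libraries). H2-Aa and H2-Eb1 had an r of 0.997 and H2-Ab1 and Cd74 one of 0.995. H2-DMb2 was closer to Ciita (0.946) and H2-Oa (0.943) than to H2-DMb1 (0.772), and the lowest pair was H2-DMb1 and H2-Oa (0.659). Among 12795 genes, those most like H2-Aa were Cd83, a surface protein of mature DCs (0.97), Rnf180, Htr7, Pkib and Ly86. Those most like H2-DMa were Ifi30 (0.96), Slamf9, Ly86, Clec10a and Ppfia4. H2-Oa was most like its partner H2-Ob (0.95), then Ctnnd2, Hepacam2, Flt3, the growth factor receptor of DC precursors, and H2-Eb2. Ciita was most like Kynu (0.97), Pkib, Hepacam2, Slamf9 and Fgd2.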

How the data were processed

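Tumor tissue of 3 control and 3 stress mice was profiled with 1 10x Genomics library per mouse. The authors counted reads with Cell Ranger (9.0.0 for control and 7.1.0 for stress libraries) against mm10. By the paper's account they removed doublets with Scrublet, and filtered, integrated, clustered and named the cells in Seurat. They deposited raw UMI counts with a table of cell types and clusters. The aligner's gene annotation is not given in the sources used here. Strand use is not stated either, so reads could be shared where a member overlaps another counted gene (H2-DMa, H2-Oa with BC051537, H2-Eb1 with Gm20513 and Ciita with Dexi).

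Here the UMIs of annotated cells were summed per mouse over each cell type and cluster with at least 10 cells in every mouse (8 types and 11 clusters of Monocytes, DCs and ECs). Stress and control were compared with edgeR 4.0.16 (R 4.3.3, filterByExpr, TMM, quasi-likelihood test), with Benjamini-Hochberg adjustment over all genes tested and a threshold of 0.05. The SE beside an edgeR log2 fold change is not an output of edgeR. It is the absolute log2 fold change divided by the square root of the F statistic of the test. DESeq2 1.42.0, RLE normalization, no filter, a replicate block, omission of called doublets, of EC cluster 15 or of each mouse were the alternatives. The shares of all genes called refer to the adjusted threshold. An unadjusted p under 0.05 was far more common in edgeR. It was reached by 1789 of 10533 genes in DCs, 646 of 5796 in B cells and 2205 of 14090 in ECs. The effect of stress was compared between Monocytes, DCs and ECs with an interaction term. Shares and ratios were compared with two-sided exact permutation tests, the ratios where the gene divided by had at least 20 UMIs in every mouse and the other gene that many on average per mouse. Counts of clusters and shares of all genes needed 20 UMIs of both genes in every mouse. Doublets were called anew with Scrublet (scanpy 1.11.5) on the annotated cells of each library, and called doublets were kept in the main fits. Shares of cells were taken after thinning to 1000 UMIs, which left out 140 control and 131 stress DCs, 89 monocytes and 610 ECs. On Monocyte sums simulated with a dispersion (spread between mice) of 0.05, edgeR recovered 148 of 200 changed genes. It made 2 false calls among 11956 genes. The interaction test recovered 84 of 200 with 3 false calls among 11884 genes. Recovery at the spread and fold changes of the class II members was not tested. Motifs and positions came from RefSeq promoters (GRCm38.p6) and GENCODE M21. Python 3.11.15 with pandas 2.3.3 and scipy 1.17.1 was used.

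The members, the list of other pathway genes and the markers were chosen with earlier results of these data known. The named genes were the 9 members, the called genes of the pathway list and the 5 genes most like H2-Aa, H2-DMa, H2-Oa and Ciita by Pearson's r over clusters. Comparisons between cell types or clusters are descriptions without a test.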

Additional observations from a re-analysis of the deposited data

How the results depend on the processing

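The counts of members called kept within 1.5 times, or stayed at 0, under 185 of 217 alternatives. The fold changes of named members kept their direction and side of the threshold under 211 of 255. Most of these counts were 0 in the main fit. The count was kept under 6 of 11 alternatives in DCs and under 2 of 11 in tumor cells. Of the called fold changes in DCs, H2-Ab1 stayed called under 10 of 11 alternatives, and H2-DMa, H2-Aa and Cd74 under 6 each. H2-DMb1 in tumor cells stayed called under 3 of 11. Without the filter on low counts, the members called and the share of all genes called were 1 and 1.73% in B cells, 2 and 0.39% in inflammatory myeloid cells, 4 and 2.21% in NK/T cells, 0 and 14.4% in tumor cells, 2 and 1.14% in DC cluster 19, 4 and 2.09% in EC cluster 8, 5 and 0.781% in EC cluster 24, 3 and 1.95% in Monocyte cluster 12 and 4 and 1.77% in Monocyte cluster 13. In EC cluster 15, where no member passed the filter, they were 4 and 1.44%. Without called doublets 0 members were called in DCs and 0 in tumor cells by edgeR (0.374% and 21.7% of all genes were), and in DCs the log2 fold change of H2-DMb1 was then -0.044 and that of Ciita -0.27. DESeq2 called 1 in DC cluster 19.

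With a replicate block, 1 member was called in inflammatory myeloid cells, 2 in NK/T cells, 2 in tumor cells and 2 in DC cluster 19, and 5 in DCs, where 0.0976%, 2.05%, 27.0%, 1.49% and 6.28% of all genes were called. Same-numbered mice deviated together with every r over 0.1 in Monocytes (0.16 to 0.51), where the block changed no call, and in inflammatory myeloid cells (0.11 to 0.66). In the other types this was not so (lowest r of -0.22 in tumor cells). Mice with different numbers could deviate together as much. Control mouse 2 and stress mouse 3 had an r of 0.20 in Monocytes, against 0.16 for control mouse 3 and stress mouse 3. In inflammatory myeloid cells the same 2 mice had an r of 0.52, against 0.11 for control mouse 2 and stress mouse 2. The labels give the mice a number and state no pairing, so whether same-numbered mice belong together is not known.

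Leaving out 1 mouse gave 1 to 4 calls in DCs, 0 to 1 in M-MDSCs, 0 to 1 in Monocytes, 0 to 2 in NK/T cells, 0 to 5 in tumor cells, 0 to 2 in DC cluster 19, 0 to 1 in EC cluster 24 and 0 to 5 in Monocyte cluster 12. In the fits without control mouse 2 the share of all genes called was 3.66% in DCs, 0.926% in M-MDSCs, 0.546% in Monocytes, 29.9% in tumor cells, 0.867% in DC cluster 19, 0.556% in EC cluster 24 and 1.10% in Monocyte cluster 12, and without stress mouse 1 it was 0.494% in NK/T cells. In DCs it was 0.668% to 1.21% in the 4 fits with 1 call. Apart from DCs, where control mice 1 and 3 and stress mice 1 and 3 each lowered the count to 1, from NK/T cells, where stress mouse 1 raised it, and from tumor cells, where every omission lost H2-DMb1, the mouse whose omission changed the count was control mouse 2. The log2 fold change of Ciita in DCs ranged from -0.15 to 0.47, and the difference of the share of B cells with an H2-Aa UMI, -5.77 percentage points, from -21.2 to 6.95. Ranked by Spearman's rho in place of Pearson's r, 2, 1, 0 and 0 of the 5 genes most like H2-Aa, H2-DMa, H2-Oa and Ciita were shared. The causes of these changes were not tested.

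The precision was limited by few cells, with 20 DCs of cluster 20 and 20 B cells in control mouse 1, and by 3 mice per group, for which the exact test cannot go below p = 0.10.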
